A study of Mus musculus with 24 samples.

Results

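The 26S proteasome degrades proteins tagged with ubiquitin, and its genes were followed here, together with the E2 enzymes that carry ubiquitin to its targets, in whole brain and liver of mice that have or lack Acads, the dehydrogenase that starts the breakdown of short-chain fatty acids in mitochondria. The members were all genes whose symbol in the array's probe annotation starts with Psma to Psmg and a digit, or with Ube2. This gave 64 of 13840 named genes, 37 of them Psm genes and 27 Ube2 genes. Where a gene had more than 1 probe, which was so for Ube2j2, Ube2l3, Ube2n and Ube2v2, the brighter probe stood for it. Psma1, Psma2, Psma8, Psmb6, Psmb9, Psmd1, Psmd3, Psmd8, Psmd9, Psmd11, Psmd14, Psme1, Psmg4, Ube2f, Ube2m and Ube2w had no probe named in the annotation used and were not analysed here.

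In each tissue there were 4 groups of 3 mice: Acads-/- on the high-fat (HF) diet D12331, Acads+/+ on the HF diet, Acads-/- on the low-fat (LF) diet D12329 and Acads+/+ on the LF diet. Acads-/- mice were BALB/cByJ, a substrain with a spontaneous deletion in Acads, and Acads+/+ mice were BALB/cByKZ, so genotype and substrain go together in every comparison of genotypes. All mice were 12-week-old males, singly housed, taken after 2 days on the experimental diet. Total RNA of each tissue was hybridised to 1-colour Applied Biosystems Mouse Genome Survey V2.0 arrays, 24 in all, and values below are log2 of the quantile-normalised signal. In whole tissue, fewer cells of a type and less RNA per cell cannot be told apart.

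The proteasome is built from a barrel-shaped 20S core, made of rings of alpha and beta subunits with the peptide-cutting sites inside, and a 19S regulatory particle, which binds ubiquitin chains, removes them and threads the protein into the barrel with a ring of ATPases. Interferon-gamma replaces the cutting subunits by those of the immunoproteasome and induces an alternative cap, and dedicated chaperones assemble the particles. E2 enzymes accept ubiquitin from an E1 and, with an E3 ligase, pass it to the substrate, where the E2 often sets the type of chain.

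Acads itself was examined first. The Acads probe read 9.39, 10.02 and 8.90 in Acads-/- HF brains and 11.92, 11.82 and 11.73 in Acads+/+ HF brains, a difference of -2.39 ± 0.47 (log2, SE; limma adjusted p = 0.00248). On the LF diet it read 7.90, 9.49 and 9.35 in Acads-/- brains and 9.87, 11.27 and 11.22 in Acads+/+ brains. The LF groups did not overlap either, but the difference was not called (-1.87 ± 0.47, limma adjusted p = 1). In liver the probe read 8.19, 7.54 and 10.03 in Acads-/- HF and 9.75, 9.67 and 11.39 in Acads+/+ HF samples, and 7.96, 8.22 and 9.69 in Acads-/- LF and 10.50, 10.46 and 8.76 in Acads+/+ LF samples. The liver groups overlapped on both diets and neither difference was called (limma adjusted p = 0.743 on HF and 1 on LF). The position of the probe relative to the deletion is not known, so the check of the labels goes only this far. The 3 Acads+/+ HF brain arrays stood apart from the other 9. They scored -46.3, -78.7 and -108 on the first principal component of the probes that passed the filter on low signal (49.2% of the variance). The others scored between 18.6 and 33.8. On these 3 arrays signal was also higher for genes of longer genomic span (Spearman's rho 0.32 to 0.429 across genes, against -0.252 to 0.0116 on the other brain arrays). The arrays are named by the number in their column of the table. No label says what the number marks, and 11 of 12 numbers occur in both tissue tables, always in the same group. The summed signal of neuron markers was 1021000 to 1419000 on brain arrays and 1685 to 4340 on liver arrays, normalised within each tissue. Other lists separated the tissues less or the other way. Hepatocyte markers summed to 1110000 to 2300000 on brain and 3097000 to 4128000 on liver arrays. The 2 astrocyte markers summed to 34980 to 56920 on brain and 350500 to 554100 on liver arrays.

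On the HF diet, genes of the 20S core were higher in Acads-/- than in Acads+/+ brains, while those of the 19S regulatory particle were not called. A gene was called at a limma adjusted p under 0.05 over all 16506 probes tested and a change of at least 1.6-fold. Of the 11 core subunits, 7 were higher and none was lower, with a median difference of 0.81 (log2), and 9 had arrays that did not overlap between the groups. Of the 12 subunits of the regulatory particle none passed in either direction, nor at an unadjusted p, where 37.3% of all probes did, and their median difference was -0.21, with a range of -0.37 to 0.19. Over all members, 61 of 64 passed the filter on low signal, and 25 of them were called, 19 higher and 6 lower. The background was 34.9% of all tested probes called, 17.5% higher and 17.4% lower. The median difference was 0.19 over the tested members and -0.13 over all tested probes. Non-overlapping arrays were seen for 37 members, against 51.7% of all tested probes. Summed signals of other cell type markers also differed without overlap. The 3 oligodendrocyte markers summed to 165300 to 268200 in Acads-/- HF and 408700 to 797700 in Acads+/+ HF brains. Of these, 0 were called higher and 1 lower, with a median difference of -0.39. The 4 neuron markers summed to 1099000 to 1172000 in Acads-/- HF and 1303000 to 1419000 in Acads+/+ HF brains. Of these, 1 was called higher and 1 lower. Their median difference was 0.59, opposite in direction to their sum. The part of these cell types in the differences of the proteasome genes was not tested.

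**Figure D1:**
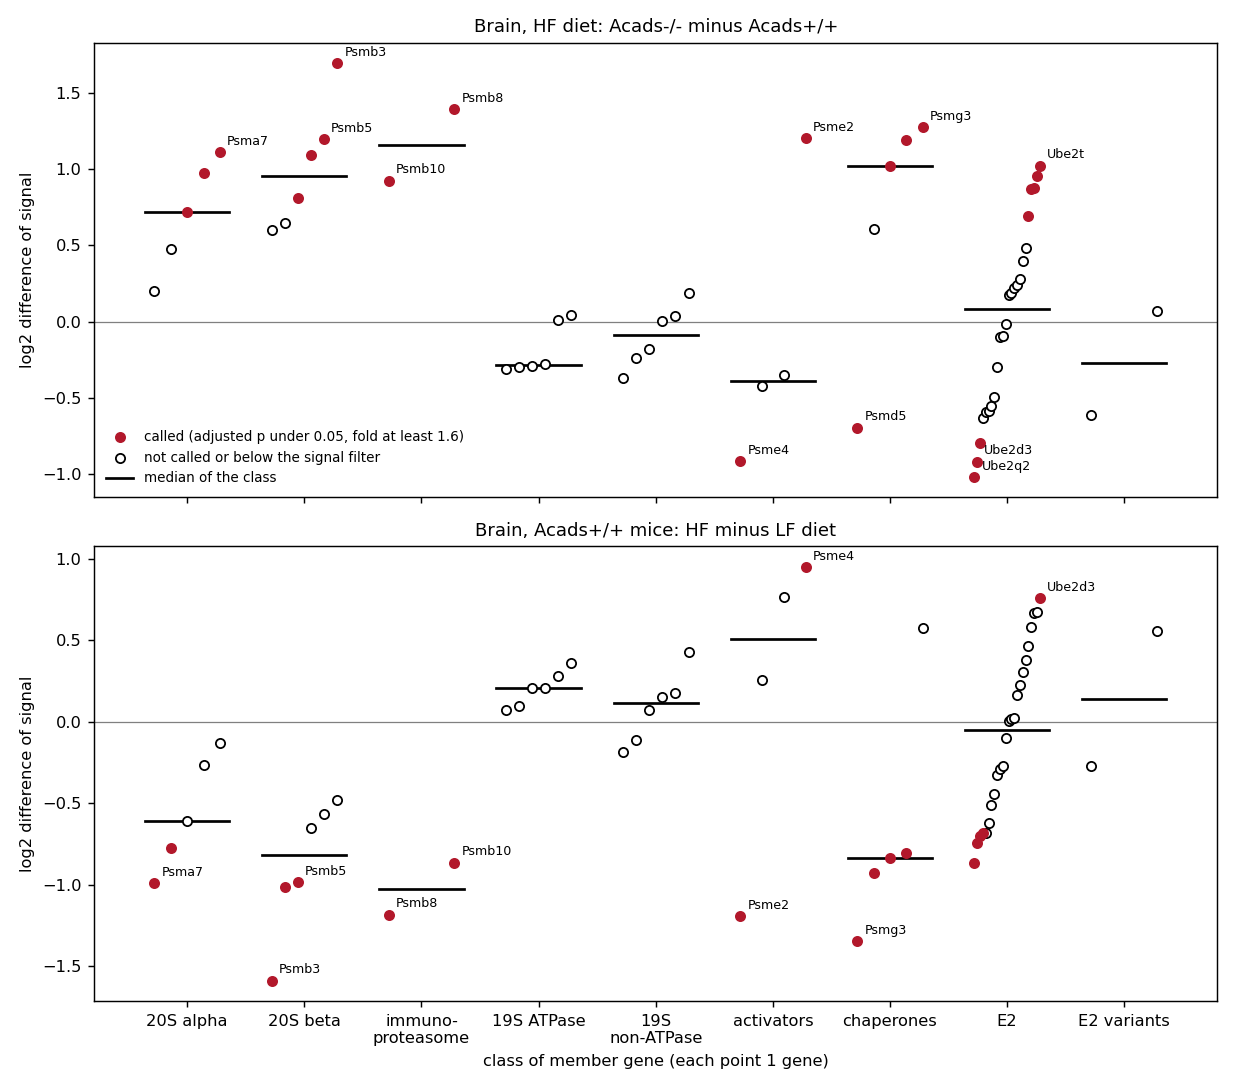
Log2 difference of each member by class, between Acads-/- and Acads+/+ brains on the HF diet (top) and between HF and LF diet in Acads+/+ brains (bottom). Filled points were called and bars are class medians. On the HF diet core and immunoproteasome subunits lie above 0, and the 12 regulatory particle subunits lie between -0.37 and 0.19.

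Promoters of 2 core and 2 regulatory particle genes are shown because these parts of the complex differed in how they moved. Each is the 300 bases from 250 before to 50 after the start of the gene in the RefSeq annotation of GRCm38.p6. Capitals mark the bases of Psmb3 (a beta ring subunit, chr11:97703184-97703483, plus strand) that match CCAAT, of Psmb5 (the chymotrypsin-like subunit, chr14:54617946-54618245, minus strand) that match TGACNNNGC, the core of the antioxidant response element, and of Psmc2 (a base ATPase, chr5:21785025-21785324, plus strand) and Psmd4 (a ubiquitin receptor, chr3:95042565-95042864, minus strand) that match CCGGAAG, an Ets-type pattern, on either strand.
Psmb3: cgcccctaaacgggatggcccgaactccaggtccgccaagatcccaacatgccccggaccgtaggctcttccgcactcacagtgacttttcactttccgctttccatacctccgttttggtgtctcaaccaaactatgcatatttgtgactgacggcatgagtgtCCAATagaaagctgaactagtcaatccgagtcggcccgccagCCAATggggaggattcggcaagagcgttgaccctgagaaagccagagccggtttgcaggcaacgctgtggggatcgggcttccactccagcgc
Psmb5: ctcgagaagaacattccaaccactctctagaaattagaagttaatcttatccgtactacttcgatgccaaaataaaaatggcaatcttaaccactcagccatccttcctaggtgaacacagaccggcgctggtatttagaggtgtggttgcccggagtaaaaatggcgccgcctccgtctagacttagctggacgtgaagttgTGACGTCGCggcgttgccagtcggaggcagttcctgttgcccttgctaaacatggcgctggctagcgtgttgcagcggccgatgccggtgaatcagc
Psmc2: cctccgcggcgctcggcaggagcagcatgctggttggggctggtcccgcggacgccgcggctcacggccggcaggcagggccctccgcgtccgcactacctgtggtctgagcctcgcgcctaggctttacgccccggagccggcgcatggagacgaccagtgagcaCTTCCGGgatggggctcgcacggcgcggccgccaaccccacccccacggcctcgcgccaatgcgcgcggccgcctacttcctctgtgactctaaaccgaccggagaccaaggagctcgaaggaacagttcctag
Psmd4: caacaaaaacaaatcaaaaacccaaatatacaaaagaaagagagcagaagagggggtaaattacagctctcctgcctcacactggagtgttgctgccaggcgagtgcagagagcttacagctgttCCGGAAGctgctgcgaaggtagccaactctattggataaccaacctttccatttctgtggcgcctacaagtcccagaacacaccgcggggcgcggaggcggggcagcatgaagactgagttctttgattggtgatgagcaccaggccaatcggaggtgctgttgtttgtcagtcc
In all, 8 patterns were searched and not all are shown here, and CCGGAAG was singled out after the counts were seen. It was present in 8 of 10 regulatory particle promoters (Psmc1, Psmc2, Psmc6, Psmd2, Psmd4, Psmd6, Psmd12 and Psmd13). This compares with 1 of 8 core promoters (Psma6), 0 of 2 immunoproteasome promoters, 5 of 20 E2 promoters and 9.93% of 27025 genes in the table. CCAAT was present in 4 of 8 core and 3 of 10 regulatory particle promoters, and in 41.1% of all genes. Each promoter above is marked only for the pattern named with it, and CCAAT is also present, unmarked, in those of Psmc2 and Psmd4. TGACNNNGC was present in 1 of 8 core promoters (Psmb5), 2 of 10 regulatory particle promoters and 14% of all genes. Across all genes tested in brain on the HF diet, the 1328 with CCGGAAG had a median difference of -0.20, with 16.2% called higher and 19.7% lower, and the 5812 without it had -0.21, 15.1% and 20.6%. A match is a run of letters only, and whether any factor binds there was not measured.

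The largest difference of any core subunit was in Psmb3, which lies in the beta ring and carries no cutting site. Psmb3 read 16.84, 16.53 and 16.44 in Acads-/- HF brains and 15.23, 15.10 and 14.41 in Acads+/+ HF brains, against 16.18, 16.38 and 16.32 in Acads-/- LF and 16.46, 16.55 and 16.49 in Acads+/+ LF brains. Its 3 Acads+/+ HF arrays were below all 9 others. The difference between genotypes on the HF diet was 1.69 ± 0.20 (log2, SE; limma adjusted p = 0.000247).

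Psmb5, which holds the chymotrypsin-like site, read 15.39, 15.22 and 15.12 in Acads-/- HF brains and 14.73, 13.89 and 13.52 in Acads+/+ HF brains (1.20 ± 0.26, limma adjusted p = 0.00408). Psmb2, another beta subunit, read 17.05, 16.79 and 16.75 in Acads-/- HF brains and 16.05, 15.89 and 15.36 in Acads+/+ HF brains (1.10 ± 0.19, limma adjusted p = 0.00135). Psmb1 differed by 0.81 ± 0.19 (limma adjusted p = 0.00617). Psmb7, which holds the trypsin-like site, differed by 0.60 ± 0.17 (limma adjusted p = 0.0142), below the 1.6-fold required, and its arrays did not overlap. Psmb4 overlapped (0.65 ± 0.25, limma adjusted p = 0.0536).

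In the alpha ring, through which substrates enter, Psma7 read 17.70, 17.63 and 17.51 in Acads-/- HF brains and 16.96, 16.69 and 15.86 in Acads+/+ HF brains. The groups did not overlap, and the difference was 1.11 ± 0.24 (limma adjusted p = 0.00365). Psma5 was 0.98 ± 0.23 higher (limma adjusted p = 0.00622) and Psma6 was 0.72 ± 0.20 higher (limma adjusted p = 0.0138). Psma3 (0.20 ± 0.14, limma adjusted p = 0.273) and Psma4 (0.48 ± 0.19, limma adjusted p = 0.0617) were not called. The 3 Acads+/+ HF arrays were not alike among themselves. The median of the 11 core genes, taken relative to the Acads+/+ LF mean, was -0.17 on array 18017, -0.69 on array 18018 and -1.21 on array 18022, where the 9 other brain arrays lay between -0.13 and 0.27. The same median over the 12 regulatory particle genes was 0.25, 0.08 and 0.20 on those 3 arrays.

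**Figure D2:**
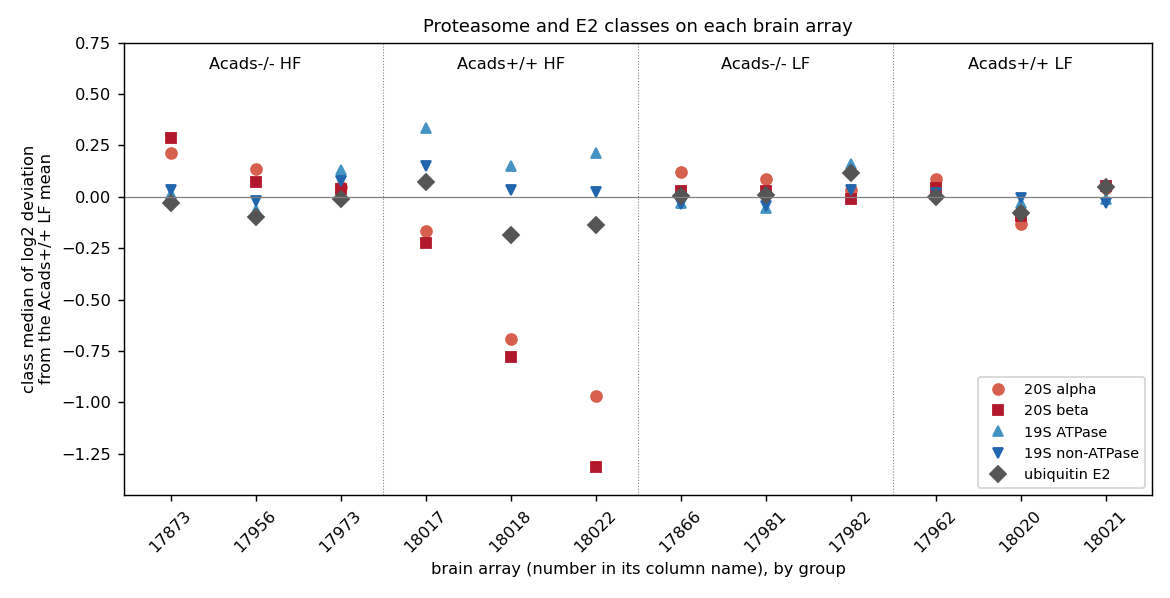
Median log2 deviation of 5 classes of members on each of the 12 brain arrays, by group, with 0 set at the Acads+/+ LF average. On the Acads+/+ HF arrays the beta ring median is -0.23, -0.78 and -1.31, and that of the base ATPases is 0.33, 0.15 and 0.21.

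Leaving out array 18022 left 5 core subunits higher in Acads-/- HF brains, leaving out array 18018 left 6, and leaving out array 18017 gave 9. With the trend of signal on genomic span removed from each array, 8 core subunits were higher, and no regulatory particle subunit was called in any of these. The methods' t-test called 7 core subunits at an unadjusted p and 0 after Benjamini-Hochberg adjustment. Acads-/- HF brains set against Acads+/+ LF brains, which uses none of the 3 Acads+/+ HF arrays, gave 0 of 61 members called by limma, and 0 at an unadjusted p (background 0.0303%, and 3.15% at an unadjusted p).

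Both measured immunoproteasome subunits were higher in Acads-/- HF brains, where 17.5% of all tested probes were higher and 17.4% lower. Psmb8, the interferon-inducible replacement of Psmb5, read 11.76, 11.63 and 12.37 in Acads-/- HF brains and 11.10, 10.84 and 9.64 in Acads+/+ HF brains (1.39 ± 0.35, limma adjusted p = 0.00791). On the LF diet it read 11.87, 11.89 and 11.55 in Acads-/- brains and 11.41, 12.03 and 11.69 in Acads+/+ brains. Psmb10, the replacement of Psmb7, read 15.47, 15.40 and 15.42 in Acads-/- HF brains and 15.27, 14.37 and 13.87 in Acads+/+ HF brains (0.93 ± 0.27, limma adjusted p = 0.0175). For both genes the groups did not overlap, but only 1 of them was called without array 18018, without array 18022, with the span trend removed, with only the compared groups in the fit or with the 25% brightest probes, and 0 with the methods' t-test, before or after adjustment. Psmb11, a thymus-restricted core subunit, was below the signal filter. Markers of blood and immune cells moved in the same comparison. The summed signal of the 6 leukocyte markers named on the array was 17570 to 18520 in Acads-/- HF and 3171 to 6967 in Acads+/+ HF brains, and 3 of the 4 tested were higher (S100a8, S100a9 and Cd52), with Ptprc and Cd3e below the filter. The 4 microglial markers summed to 140400 to 176700 in Acads-/- HF and 102700 to 129800 in Acads+/+ HF brains, with Aif1 and C1qa higher and P2ry12 lower. The 2 red blood cell markers summed to 378000 to 405600 in Acads-/- HF and 71230 to 135800 in Acads+/+ HF brains. Only 1 of the 2 was called, as higher, and their median difference was 0.83. The part of these cells in the difference of the immunoproteasome genes was not tested. Of an interferon-gamma and antigen processing list, 11 genes were tested and 1 was higher, B2m (1.52 ± 0.35, limma adjusted p = 0.00566), the light chain of class I molecules, and none was lower.

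Among the regulatory particle genes, the 6 ATPases of the base differed by -0.31 to 0.04. Psmc2 read 17.81, 17.66 and 17.88 in Acads-/- HF brains and 18.10, 17.91 and 18.26 in Acads+/+ HF brains (-0.31 ± 0.13, limma adjusted p = 0.0806), with no overlap and the direction opposite to that of the core genes. Psmc4 read 16.18, 16.18 and 16.19 in Acads-/- HF brains and 16.38, 16.20 and 15.95 in Acads+/+ HF brains, which overlapped (0.01 ± 0.16, limma adjusted p = 0.967). Psmd4, a ubiquitin receptor of the particle, read 15.44, 15.39 and 15.40 in Acads-/- HF brains and 15.43, 15.13 and 15.10 in Acads+/+ HF brains (0.19 ± 0.15, limma adjusted p = 0.31). Psmd2, a large scaffold subunit, differed by -0.37 ± 0.22 (limma adjusted p = 0.175). An exception among the 19S subunits is Sem1, which has no Psm symbol and so was no member. It was 2.28 ± 0.25 higher in Acads-/- HF brains (limma adjusted p = 0.000176).

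The activators of the core moved in both directions. Psme2, a subunit of the interferon-inducible cap, read 14.22, 14.08 and 14.04 in Acads-/- HF brains and 13.35, 12.93 and 12.44 in Acads+/+ HF brains, with no overlap. The difference was 1.20 ± 0.21 (limma adjusted p = 0.00128). Psme4, a large single-chain activator, read 13.36, 12.97 and 13.31 in Acads-/- HF brains and 13.58, 14.17 and 14.63 in Acads+/+ HF brains, and was lower in Acads-/- HF brains, with a difference of -0.91 ± 0.24 (limma adjusted p = 0.0106). Psme3, a nuclear activator, differed by -0.42 ± 0.16, under the fold required. Psmf1, an inhibitor of the core, was below the filter.

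Of the 5 assembly chaperones, 3 were higher and 1 lower, where 17.5% of all tested probes were higher and 17.4% lower. Psmg3, a chaperone of the alpha ring, read 15.17, 14.83 and 14.97 in Acads-/- HF brains and 14.36, 13.72 and 13.06 in Acads+/+ HF brains (1.28 ± 0.27, limma adjusted p = 0.00345). Psmg1, whose partner is Psmg2, was 1.19 ± 0.21 higher (limma adjusted p = 0.00132), and Psmg2 was not called (0.61 ± 0.26, limma adjusted p = 0.0769). Psmd10, a chaperone of the base ATPases also known as gankyrin, was 1.02 ± 0.15 higher (limma adjusted p = 0.000615). Psmd5, another base chaperone, read 13.67, 13.78 and 13.66 in Acads-/- HF brains and 14.29, 14.48 and 14.41 in Acads+/+ HF brains, a difference of -0.69 ± 0.13 (limma adjusted p = 0.00215). Pomp, which matures the core and was no member, was 1.43 ± 0.22 higher (limma adjusted p = 0.000667). Psmc3ip and Psme3ip1 matched the rule by name but are partner proteins, not subunits. They differed by 1.21 ± 0.18 and -0.82 ± 0.20 (limma adjusted p = 0.000631 and 0.00684).

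Of 24 ubiquitin E2 genes tested, 5 were higher and 3 lower in Acads-/- HF brains and 16 were not called, with a median difference of 0.08. These counts are near the background of 17.5% higher and 17.4% lower over all probes. Ube2k, which extends the chains that mark proteins for the proteasome, read 17.11, 16.75 and 16.80 in Acads-/- HF brains and 16.41, 15.99 and 15.64 in Acads+/+ HF brains (0.87 ± 0.19, limma adjusted p = 0.00421). Ube2a, a partner of the ligases that tag histone H2B, was 0.96 ± 0.17 higher (limma adjusted p = 0.00166). Ube2s, which extends chains with the anaphase-promoting complex, was 0.87 ± 0.23 higher (limma adjusted p = 0.0107). Ube2h and Ube2t also rose, Ube2t at the threshold (1.02 ± 0.39). Ube2d3, a broadly used E2 that starts chains, read 16.95, 16.90 and 17.15 in Acads-/- HF brains and 17.84, 17.83 and 18.07 in Acads+/+ HF brains, a difference of -0.92 ± 0.15 (limma adjusted p = 0.000861). Its 3 Acads+/+ HF arrays were above all 9 others. Ube2q2 differed by -1.02 ± 0.17 (limma adjusted p = 0.000963) and Ube2z by -0.80 ± 0.21 (limma adjusted p = 0.0118).

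Relatives of these enzymes did not all move. Ube2d1 was not called (0.18 ± 0.15, limma adjusted p = 0.362), and Ube2d2a (-0.55 ± 0.16) passed the p but not the fold. Ube2c, the E2 that starts chains for the anaphase-promoting complex, also missed the fold (-0.58 ± 0.21). Its probe was very bright, with a mean of 20.80 in Acads+/+ LF brains and 19.73 in livers, all arrays normalised together. Of the 4 cell cycle markers named on the array, 0 passed the filter in brain. Whether this probe reports Ube2c was not tested. Ube2n, which makes signalling chains with a variant partner that lacks the catalytic cysteine, differed by -0.10 ± 0.14. The less bright Ube2n probe differed in the other direction, by 0.55 (limma adjusted p = 0.0426), under the fold required. The partners of Ube2n gave -0.61 ± 0.15 for Ube2v1, with no overlap and a fold too small to be called, and 0.07 ± 0.22 for Ube2v2. Ube2l6, which conjugates the ubiquitin-like Isg15, was below the filter.

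**Figure D3:**
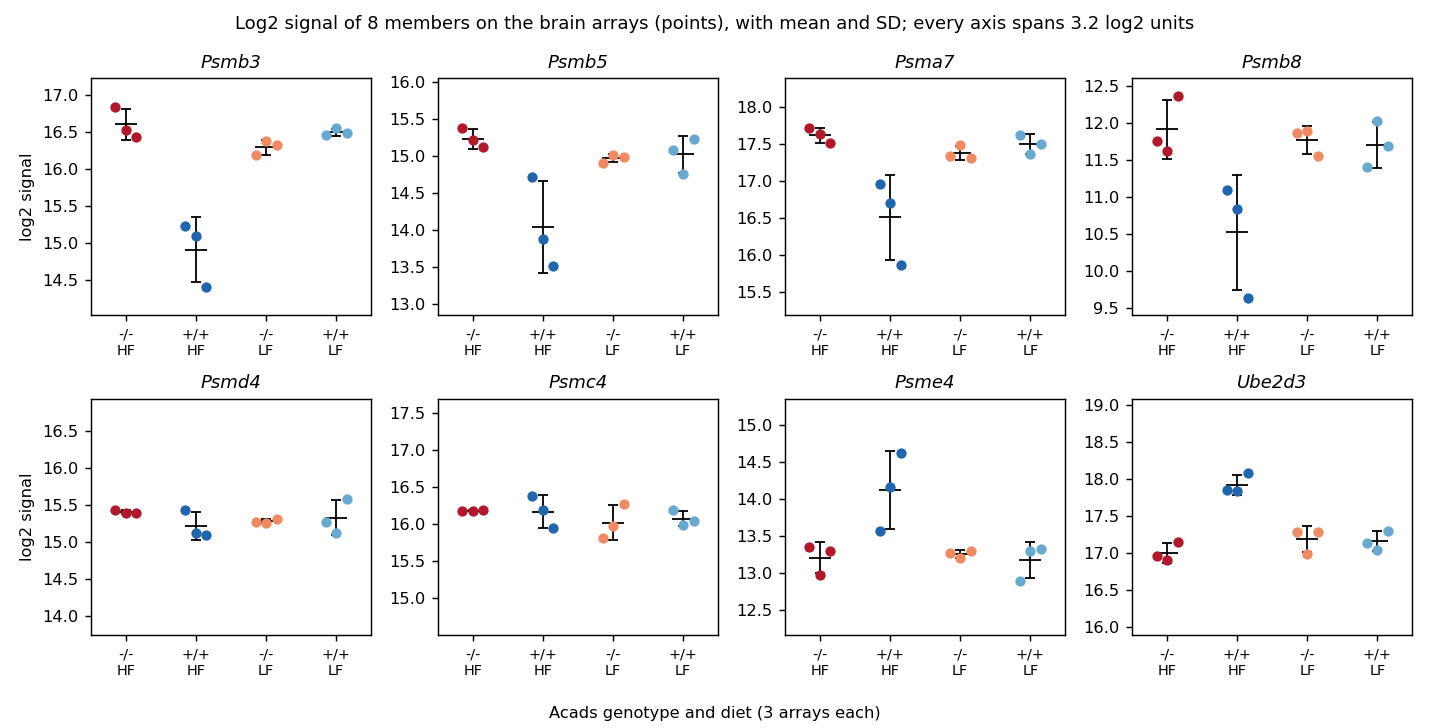
Log2 signal of 8 members on each of the 12 brain arrays (points), by group, with mean and SD. Psmb3, Psmb5, Psma7 and Psmb8 are lowest on the Acads+/+ HF arrays, Psme4 and Ube2d3 are highest there, and Psmd4 and Psmc4 overlap.

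Elsewhere in the pathway, 24 genes of a list of ubiquitin, E1, E3 and shuttle genes were tested in brain, and 4 were higher and 8 lower in Acads-/- HF brains, with a median difference of -0.54, against 17.5% higher and 17.4% lower over all probes. Besides Sem1 and Pomp, Isg15 and Rbx1 were higher. Among the lower genes, Vcp, an unfoldase upstream of the proteasome, differed by -1.04 (limma adjusted p = 0.000904). Usp14, a deubiquitinase on the regulatory particle, differed by -0.88 (limma adjusted p = 0.000495), and Nfe2l1, a transcription factor of proteasome genes, by -1.61 (limma adjusted p = 0.0194).

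The diet comparison in Acads+/+ brains used the same 3 Acads+/+ HF arrays, and so did the interaction. Of 61 members, 2 were higher and 17 lower on HF than on LF in Acads+/+ brains, where 32.9% of all probes were called (15.5% higher, 17.3% lower). The median over the tested members was -0.18, against 0.12 over all probes. The core had 5 of 11 lower (Psma5, Psma7, Psmb2, Psmb3 and Psmb5) and the regulatory particle 0 of 12 in either direction. Psmb3 differed by -1.59 ± 0.20 (limma adjusted p = 0.000368), Psmb8 by -1.18 ± 0.35 (limma adjusted p = 0.018), Psme2 by -1.19 ± 0.21 (limma adjusted p = 0.0016) and Psmg3 by -1.35 ± 0.27 (limma adjusted p = 0.00302). Ube2d3 (0.76 ± 0.15, limma adjusted p = 0.00256) and Psme4 (0.95 ± 0.24, limma adjusted p = 0.00951) were higher. Without array 18022 11 members were called, 3 of them core subunits and none of the immunoproteasome. The core had 8 lower without array 18017 and 9 with the arrays scaled to a common median.

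The other brain comparisons held no call among the members. Between Acads-/- and Acads+/+ brains on the LF diet 0 of 61 passed, with differences of -0.26 to 0.43 (background 0.0182%), and between HF and LF in Acads-/- brains 0 of 61, with differences of -0.52 to 0.38 (background 0%). At an unadjusted p limma called none of the members in either, against 1.97% of all probes between genotypes on LF and 4.86% between diets in Acads-/- brains. The interaction, the diet response of Acads-/- minus that of Acads+/+ brains, was called for 14 of 61 members, 10 higher and 4 lower, where 22.7% of all probes were called (12.1% higher, 10.6% lower). Psmb3 had the largest value, 1.90 ± 0.29 (limma adjusted p = 0.00274), and without a filter on low signal 4 members were called, and 8 to 26 when single arrays were left out.

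In liver no member was called in any of the 5 comparisons. Of the 64 members, 57 passed the filter, and the background was 0%, or 0.109% for HF against LF in Acads-/- livers. The lowest adjusted p of a member was 0.481 between genotypes on the HF diet, 0.296 between diets in Acads+/+ and 0.364 between diets in Acads-/- livers. At an unadjusted p limma called Psmb8 between genotypes on the HF diet (5.67% of all probes), no member between genotypes on the LF diet (3.29%), Psma4, Psmg2 and Ube2t between diets in Acads+/+ livers (8.7%), Psmb10 between diets in Acads-/- livers (7.4%) and Psma4 for the interaction (5.14%). Psmb8 read 12.90, 13.33 and 13.40 in Acads-/- HF livers and 11.32, 11.40 and 12.03 in Acads+/+ HF livers. The groups did not overlap, as was so for 11.1% of all probes, and the difference was 1.63 ± 0.47 (limma adjusted p = 0.481). On the LF diet Psmb8 read 12.15, 13.08 and 12.28 in Acads-/- livers and 11.11, 13.09 and 11.73 in Acads+/+ livers, which overlapped. The summed signal of Kupffer cell markers was 78230 to 118400 in Acads-/- HF and 53370 to 76560 in Acads+/+ HF livers, and its part in the value of Psmb8 was not tested. Psmb10 read 12.33, 10.79 and 12.01 in Acads-/- HF livers and 8.09, 10.85 and 9.75 in Acads-/- LF livers, which overlapped (2.14 ± 0.72, limma adjusted p = 0.364). Psma4 read 14.22, 14.16 and 13.88 in Acads+/+ HF livers and 13.56, 13.11 and 13.12 in Acads+/+ LF livers, with no overlap (0.82 ± 0.23, limma adjusted p = 0.296). Psmb3 (-0.15 ± 0.22), Psmb5 (-0.17 ± 0.37), Psme2 (0.03 ± 0.22) and Ube2d3 (0.01 ± 0.17), which moved in HF brains, gave these differences between genotypes in HF livers.

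**Figure D4:**
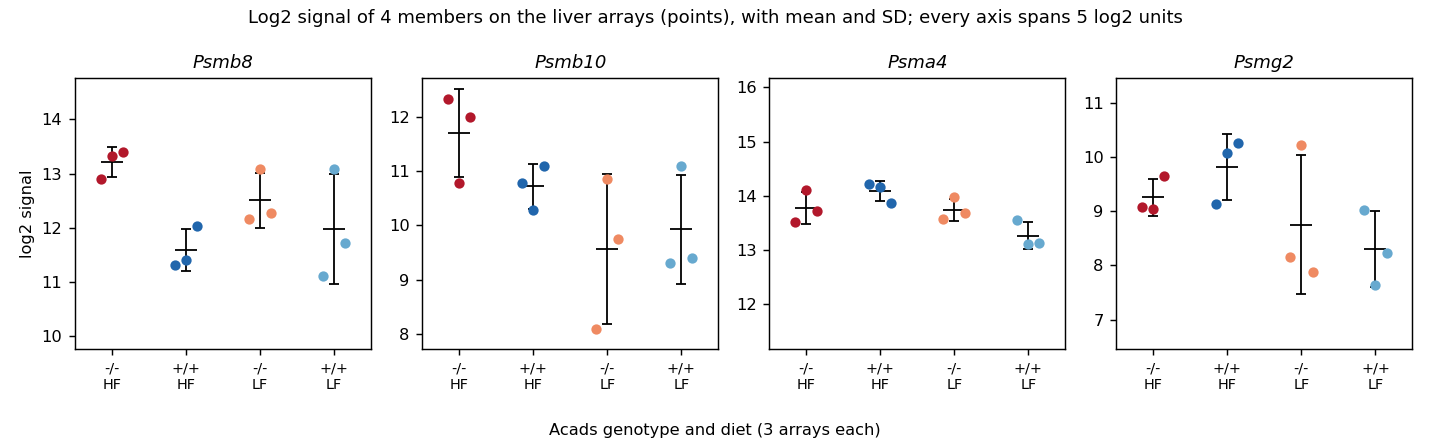
Log2 signal of 4 members on each of the 12 liver arrays (points), by group, with mean and SD. Psmb8 lies between 12.90 and 13.40 on the Acads-/- HF arrays and between 11.32 and 12.03 on the Acads+/+ HF arrays.

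To compare levels between the tissues, the 24 arrays were normalised together, and tissue and array run cannot be told apart. Among 60 members tested on the LF diet, 23 were higher and 13 lower in brain than in liver of Acads-/- mice, where 64.3% of all probes were called (34% higher, 30.3% lower), and 23 were higher and 12 lower in Acads+/+ mice, where 63.9% were called (33.3% higher, 30.5% lower). With the arrays scaled to a common median the counts were 22 higher and 21 lower in Acads-/- and 20 higher and 23 lower in Acads+/+ mice, and the median of all probes moved to 0.50 and 0.26, against 0.19 and 0.12. The base ATPase Psmc5 had the largest difference of the proteasome members, at 16.76 ± 0.24 in brain and 9.95 ± 1.96 in liver (SD, n = 3 each) of Acads-/- mice, a difference of 6.81 ± 0.80. In Acads+/+ mice it was 6.20. Psmc5 passed the filter in liver, but its signal there was low. The lowest liver reading was 8.67 in Acads-/- and 10.04 in Acads+/+ mice, so the size of its difference is uncertain. The other 5 ATPases, which sit with Psmc5 in the same ring, differed by -0.52 to 0.77. The scaffold subunit Psmd2 was lower in brain, with differences of -1.01 in Acads-/- and -0.89 in Acads+/+ mice. Psmc3ip, Psmd13, Psme3ip1, Ube2e3 and Ube2z, which are among the members counted as higher in brain, were below the signal filter in liver, so no size is given for them.

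Psmb5 was higher in brain by 2.96 in Acads-/- and 3.14 in Acads+/+ mice, while its replacement Psmb8 was lower in brain, with differences of -2.90 and -2.58. The liver signal of Psmb5 was low, with means of 11.36 and 11.24, where the other core subunits had means of 14.46 to 17.32. The size of the Psmb5 difference is therefore uncertain. Psmb10, the other replacement, was higher in brain by 3.58 and 3.07, with lowest liver readings of 8.77 and 11.03. The subunit of the interferon-inducible cap, Psme2, was lower, with differences of -2.09 and -1.86. Psmd4 was higher by 1.42 and 1.21, and Psmb7 (0.24 and 0.10) turned to -0.76 and -0.99 under the median scaling. Among the enzymes, Ube2v1 was 5.76 and 4.73 higher in brain, Ube2v2 2.20 and 2.43, and their partner Ube2n 1.65 and 1.38. The liver signal of Ube2v1 was low, with means of 9.88 and 10.76, so the size of its difference is uncertain. Ube2a was lower in brain, with differences of -1.38 and -1.55. Ube2d1 was higher by 1.27 and 1.26 and Ube2d3 lower, with differences of -0.71 and -0.82, so these close relatives lay on opposite sides. The opposite signs of Psmb5 and Psmb8, and the higher signal of Psmc5 in brain, were present in both genotypes.

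**Figure D5:**
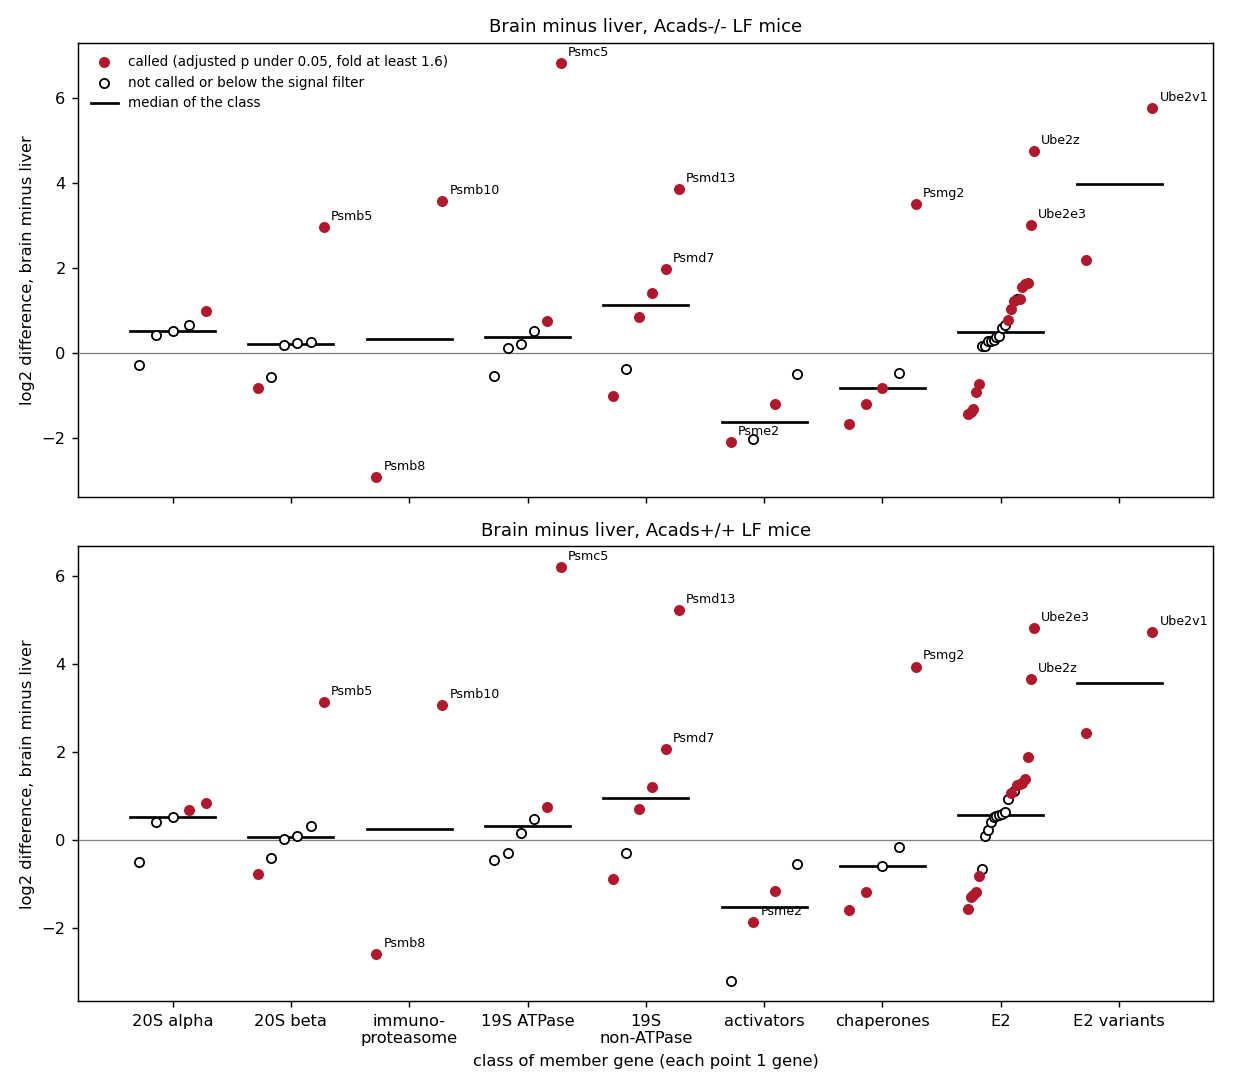
Brain minus liver log2 difference of each member by class on the LF diet, in Acads-/- (top) and Acads+/+ mice (bottom). Filled points were called and bars are class medians. Psmc5 lies at 6.81 and 6.20, and Psmb8 at -2.90 and -2.58, while Psmd13, Ube2z and Ube2e3 were below the signal filter in liver. Psmb5, Psmc5 and Ube2v1 passed that filter with low liver signal, so their sizes are uncertain.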

How the data were processed

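Per the labels and the study's methods, whole brain and liver RNA of 24 samples was transcribed to labelled cRNA and read as 1-colour chemiluminescent signal. The deposited values used here were signal intensity per probe, as exported by the authors from the array software. The authors' deposited log2 values in the series table were the log2 of these intensities after quantile normalisation and served as an alternative.

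Intensities were quantile-normalised within each tissue, raised to a floor at the 5th percentile, log2-transformed and fitted by group with limma 3.58.1 in R 4.3.3 over 12 arrays per tissue, after keeping the 50% of probes with the highest mean signal. Calls needed a Benjamini-Hochberg adjusted p under 0.05 over 16506 probes and a change of at least 1.6-fold. Brain and liver were compared after normalising all 24 arrays together. Scripts were tested on simulated data. Symbols and promoters came from the platform annotation and RefSeq (GRCm38.p6). Promoters on chromosome 18 were left out.

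Genes were named by a rule: catalytic, immunoproteasome, activator and selected E2 genes always, and in each class up to 3 called, non-overlapping members per direction. Genes shown for their values outside that rule were chosen after their values were seen. The members and lists were chosen with earlier results of these data known. The number of arrays, 3 a group, limits the precision. A label of the LF livers names the other diet, and their titles and treatment labels were used. Alternatives covered scaling, floor, filter, the series table, the samples in the fit, the test, probe choice, span and left-out arrays.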

Additional observations from a re-analysis of the deposited data

Results flagged for a closer look

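For 14 of 61 members the effect of diet in brain differed between the genotypes by the limma interaction test. This count is near the background of 22.7% of all tested probes (12.1% higher, 10.6% lower). Values are the response of Acads-/- minus that of Acads+/+ on the log2 scale. The 10 higher values were Psmb3 1.90, Psmg3 1.49, Psme2 1.37, Psmb5 1.25, Psma7 1.23, Psmg1 1.19, Psmd10 1.15, Psmb2 1.12, Psmc3ip 0.98 and Ube2a 0.90. The 4 lower values were Ube2v1 -0.75, Ube2d2a -0.76, Ube2d3 -0.94 and Ube2q2 -1.06. All 14 use the 3 Acads+/+ HF arrays that stood apart from the rest, whose part in these values was not tested.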

How the results depend on the processing

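For brain on the HF diet, 25 members were called between genotypes. This was 0 with the methods' t-test after Benjamini-Hochberg adjustment, 0 with Acads-/- HF against Acads+/+ LF (chosen after seeing the data), and 18 to 29 when each array was left out. For diet in Acads+/+ brains, 19 members became 12 with the methods' t-test at an unadjusted p, 3 after adjustment, and 11 to 27 with an array left out. For the interaction, 14 became 4 without a filter (more probes tested), 23 with the methods' t-test and 24 with limma at an unadjusted p, and 8 to 26 with an array left out. It was 9 without array 17873, 9 without 17982, 8 without 17962 and 26 without 18017. In liver, where none was called, limma and the methods' t-test at an unadjusted p each gave 1 between genotypes on the HF diet, 3 for diet in Acads+/+, 1 for diet in Acads-/- (higher by limma, lower by the t-test) and 1 for the interaction. Brain minus liver gave 33 to 39 calls in Acads+/+ and 34 to 37 in Acads-/- mice with an array left out, and 35 in each with array number as a random block, which was chosen after seeing the data. Against Acads+/+ LF, Psme4 turned to 0.0377 and Psmg3 to -0.0685. Under median scaling, brain minus liver turned to -0.76 for Psmb7 and -0.38 for Ube2c in Acads-/-, and to -0.99 and -0.47 in Acads+/+ mice. The causes were not tested. Replicate numbers did not pair the samples (3 of 18 same-number correlations over 0.1 in brain), and with the replicate block 25, 19 and 14 members were called. The alternative that removes a trend on protein length was not run.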
